A study of Mus musculus with 14 samples.

Results

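The genes described here are 4 ligands of the chemokine receptor CXCR2 (Cxcl1, Cxcl2, Cxcl3 and Cxcl5), the receptor gene Cxcr2, the growth factor gene Csf3 with its receptor gene Csf3r, and the calcium-binding protein genes S100a8 and S100a9. These 9 genes were taken by symbol from a table of 51789 genes, and all 9 were found. The data are RNA counts from 14 libraries of mouse tumours, from a study of ACSS2 inhibitors in triple negative breast cancer. Hosts were of the strain written as C57BI/6 (here C57BI6) or of the strain written as NGS, whose full name the labels do not give. Mice received vehicle or ACSS2i, which blocks ACSS2, the enzyme that turns acetate into acetyl-CoA. Each treatment had 3 libraries from NGS hosts and 4 from C57BI6 hosts. The design text also mentions Bmal1 status, which no label assigns to a sample. Age, tumour cell line, dose and duration are not given in the sources used here, and nothing there says that replicates of a group came from separate animals. P-values therefore measure the spread between these libraries, which may be technical in part.

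CXCR2 is the receptor by which neutrophils, short-lived phagocytes made in the bone marrow, follow chemokines out of the blood into inflamed tissue and tumours. Its mouse ligands carry a glutamate-leucine-arginine motif and are made by epithelial cells, fibroblasts, endothelial cells and macrophages when NF-kB is active. Csf3 encodes G-CSF, the cytokine that drives neutrophil production through the receptor encoded by Csf3r. S100A8 and S100A9 form calprotectin, an abundant cytosolic protein of neutrophils, which monocytes and stressed keratinocytes also make.

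Library totals in the NGS strain were 4.21 to 4.7 M (M, 1000000 counts) with vehicle and 2.85 to 4.04 M with ACSS2i. In the C57BI6 strain they were 17.6 to 19.2 M with vehicle and 18.4 to 20.3 M with ACSS2i, so depth followed the strain. Levels are given as CPM, counts scaled to a library total of 1000000. The 3 counts that a group without any count allows correspond to 0.226 CPM (vehicle) and 0.289 CPM (ACSS2i) in the NGS strain and to 0.0403 and 0.0387 CPM in the C57BI6 strain, for counting error only. The epithelial keratin genes Krt8 (187 to 380 CPM) and Krt18 (16.9 to 51.9 CPM) were present in every library. The epithelial adhesion gene Epcam had at most 19 counts in a library and the progesterone receptor gene Pgr at most 8, while the oestrogen receptor gene Esr1 was at 10.5 to 20.8 CPM and Erbb2 at 4.27 to 9.27 CPM. A pair of NGS libraries, vehicle 1 and ACSS2i 1, stood apart in RNA of keratinocytes (2112 and 626 CPM over 20 genes, against 15.4 to 76.7 in the others), and skeletal muscle RNA ran from 5.44 to 6669 CPM over 11 genes. Members that moved most without NGS vehicle 1 are given with and without it.

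The name "neutrophil genes" was weakly borne out by the few defining markers named here. Ly6g, the surface antigen used to identify mouse neutrophils, had 25 counts in all 14 libraries together and never more than 9 in a library. The granule protease genes Elane (2 counts in all) and Mpo (21), the granule genes Camp (74) and Ngp (20), the surface gene Cd177 (12) and the second CXCL8-type receptor gene Cxcr1 (7) were also at or near 0. Retnlg, a secreted protein of mature neutrophils, had 343 counts, at most 72 in a library. Cxcr2, Csf3r, S100a8 and S100a9 are therefore described as genes and not as a count of neutrophils. In bulk tissue fewer cells of a type cannot be told apart from less RNA per cell.

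Cxcl1, Cxcl2, Cxcl3 and Cxcl5 lie in a cluster on chromosome 5 of mm10, all protein-coding and on the plus strand: Cxcl5 (ENSMUSG00000029371) at 90759360 to 90761624, Cxcl3 (ENSMUSG00000029379) at 90786103 to 90789600, Cxcl1 (ENSMUSG00000029380) at 90891241 to 90893115 and Cxcl2 (ENSMUSG00000058427) at 90903871 to 90905938. None overlaps another annotated gene, and no 50-base word from the last 500 bases of their transcripts occurs in a transcript of another gene. The RefSeq promoter table (build GRCm38.p6, 250 bases before to 50 after each gene's start) holds 7 of the 9 members, all but Cxcl5 and Csf3. The letters GGAATTTCC, a form of the NF-kB binding motif, were searched on both strands (reverse complement GGAAATTCC). They occur once each in the promoters of Cxcl1, Cxcl2 and Cxcl3 and not in those of Cxcr2, Csf3r, S100a8 or S100a9, and 104 of 32851 promoters of this length (0.317%) hold them. The stretches that follow are shown because these 3 ligand genes share the match within 100 bases of the start. They run 5′ to 3′ on the plus strand of GRCm38.p6, with the motif in capitals. Distances count from the start used in the RefSeq promoter table, which for each of these genes differs from the gene start printed above.
Cxcl1, chr5:90891135-90891234, motif from 70 bases before the start: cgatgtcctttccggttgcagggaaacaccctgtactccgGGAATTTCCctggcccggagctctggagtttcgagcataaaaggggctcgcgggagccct
Cxcl2, chr5:90903763-90903862, motif from 96 bases before the start: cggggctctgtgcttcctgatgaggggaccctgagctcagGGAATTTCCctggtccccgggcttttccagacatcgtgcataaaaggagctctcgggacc
Cxcl3, chr5:90785989-90786088, motif from 72 bases before the start: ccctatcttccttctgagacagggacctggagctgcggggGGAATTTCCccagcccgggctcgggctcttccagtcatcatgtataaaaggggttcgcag
A match is a run of letters and does not show binding.

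In C57BI6 tumours the ligand transcripts were at lower mean levels under ACSS2i, and the change passed the test for Cxcl2 alone among the ligands tested. Cxcl2, a chemokine for neutrophils released early by macrophages and mast cells, was at 30.6, 40.9, 33.1 and 33.2 CPM in vehicle replicates 1 to 4 and at 10.6, 12.1, 25.9 and 13.8 CPM in ACSS2i replicates 1 to 4. The groups did not overlap, and the highest treated library was replicate 3. The means were 34.5 ± 4.46 and 15.6 ± 6.99 CPM (SD, n = 4 each), a 2.3-fold fall (log2 fold change -1.20 ± 0.23 as estimate ± SE, edgeR adjusted p = 0.0422). Of the 7 members tested, 1 passed in this comparison, where 0.052% of 17294 genes passed as lower and 0.312% in either direction. Non-overlapping lower groups were seen in 1.89% of genes. The call was lost on leaving out any 1 of 10 libraries (edgeR adjusted p up to 0.2): each of the 4 C57BI6 controls, treated C57BI6 replicates 1, 2 and 4, NGS controls 2 and 3, and the treated NGS replicate 3. Without C57BI6 ACSS2i 3 it was -1.55 (adjusted p = 0.000904).

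Cxcl1, the mouse counterpart of human GRO-alpha, was at 38.8, 62.1, 55.3 and 36.3 CPM in C57BI6 vehicle and at 16.9, 22.2, 52.7 and 23.1 CPM in C57BI6 ACSS2i. Replicate 3 of the treated group lay within the vehicle range, and the other treated libraries lay below every vehicle library. The fitted change was -0.81 ± 0.30 on the log2 scale and did not pass (edgeR adjusted p = 0.419), with means of 48.1 ± 12.6 and 28.7 ± 16.2 CPM (SD, n = 4 each). Without C57BI6 ACSS2i 3 the same fit gave -1.27 ± 0.21 (edgeR adjusted p = 0.0335), so this library changed the call. That library also held the most skeletal muscle RNA of the C57BI6 libraries, 3025 CPM summed over 11 muscle genes against 5.44 to 992 in the other 7. The part of muscle tissue in these values was not tested. Without the 3 C57BI6 libraries richest in muscle RNA (vehicle 1, ACSS2i 1 and ACSS2i 3) the call of Cxcl2 held. This set, chosen after seeing the data, includes ACSS2i 3, the treated library with the highest Cxcl2 (25.9 CPM). Without ACSS2i 3 alone the log2 fold change of Cxcl2 was -1.55 (edgeR adjusted p = 0.000904). Without vehicle 1 alone or ACSS2i 1 alone the call was lost (edgeR adjusted p = 0.0524 and 0.0979). The held call is therefore no test of the part of muscle tissue.

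Cxcl5, a ligand made mainly by epithelial and stromal cells, was at 9.41, 10.4, 14 and 12.5 CPM in C57BI6 vehicle and at 4.84, 7.77, 13.6 and 7.24 CPM in C57BI6 ACSS2i. The groups overlapped through the treated replicate 3 (log2 fold change -0.54 ± 0.52, edgeR adjusted p = 0.912). Cxcl3 was near the limit of detection, with 5, 14, 10 and 7 counts in C57BI6 vehicle and 11, 5, 8 and 8 in C57BI6 ACSS2i. It did not enter the edgeR test, and its mean CPM of 0.482 ± 0.202 and 0.417 ± 0.145 gave p = 0.657 in an exact two-sided permutation test, where 0.0286 is the smallest possible. Summed over all 4 ligands, vehicle libraries held 79.1 to 114 CPM and treated libraries 32.9 to 92.6 CPM.

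**Figure D1:**
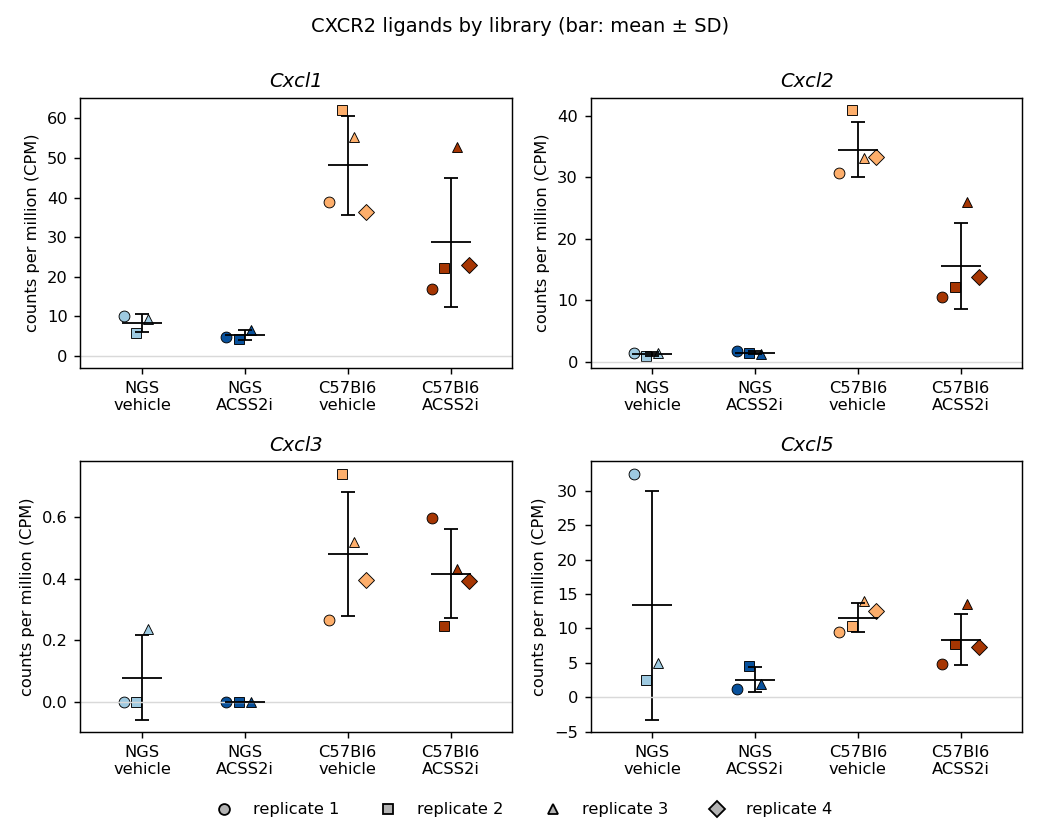
CPM of the 4 CXCR2 ligand genes in every library (marker shape gives the replicate), with the mean and SD of each group as a bar, where a bar may reach below 0. Cxcl2 in C57BI6 ACSS2i (10.6 to 25.9 CPM) lies below every C57BI6 vehicle library (30.6 to 40.9), and the NGS vehicle library with Cxcl5 at 32.5 CPM stands apart from the other NGS libraries.

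In NGS tumours Cxcl1 was at 4.22 to 10 CPM and Cxcl2 and Cxcl3 at a few counts, and 0 of the 3 ligands tested passed with edgeR (1, Cxcl5, at an unadjusted p under 0.05, which also passed with DESeq2, and 0 with limma voom). Cxcl1 was at 10, 5.76 and 9.27 CPM in NGS vehicle replicates 1 to 3 and at 4.87, 4.22 and 6.69 CPM in NGS ACSS2i. The treated replicate 3 lay above the vehicle replicate 2, so the groups overlapped (log2 fold change -0.69 ± 0.49, edgeR adjusted p = 0.432). Cxcl2 had 7, 4 and 6 counts in NGS vehicle and 6, 4 and 5 in NGS ACSS2i. The ratio of the CPM of the pooled groups, ACSS2i over vehicle, was 1.13, with an exact 95% interval of 0.524 to 2.4 for counting error alone. Cxcl2, too, entered the test through the C57BI6 libraries and fell below the filter with the NGS libraries alone, and the model of all groups gave 0.13 ± 0.58 on the log2 scale (edgeR adjusted p = 0.942). A test of the difference between the strains in the Cxcl2 response, C57BI6 minus NGS, gave -1.33 ± 0.64 on the log2 scale and did not pass (edgeR adjusted p = 0.371). Cxcl3 had 1 count in NGS vehicle and 0 in NGS ACSS2i, so no change could be detected at this depth.

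Cxcl5 in NGS tumours was high in a single library. It was at 32.5 CPM in vehicle replicate 1, at 2.53 and 4.99 CPM in vehicle replicates 2 and 3, and at 1.15, 4.57 and 1.98 CPM in the treated libraries. The log2 fold change was -2.49 ± 0.82 (edgeR adjusted p = 0.0997, DESeq2 adjusted p = 0.0371), and -0.66 without vehicle replicate 1. That library also held the most keratinocyte RNA, 2112 CPM over 20 keratinocyte genes against 30.2 to 626 in the other NGS libraries and 15.4 to 20 in the C57BI6 libraries. Krt5, a keratin of basal keratinocytes, was at 177 CPM there, at 60.8 CPM in NGS ACSS2i replicate 1 and at 1.61 CPM or less elsewhere. The second library rich in these genes, NGS ACSS2i 1 (626 CPM), had the lowest Cxcl5 of all 14. The part of skin in the Cxcl5 level was not tested.

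**Figure D2:**
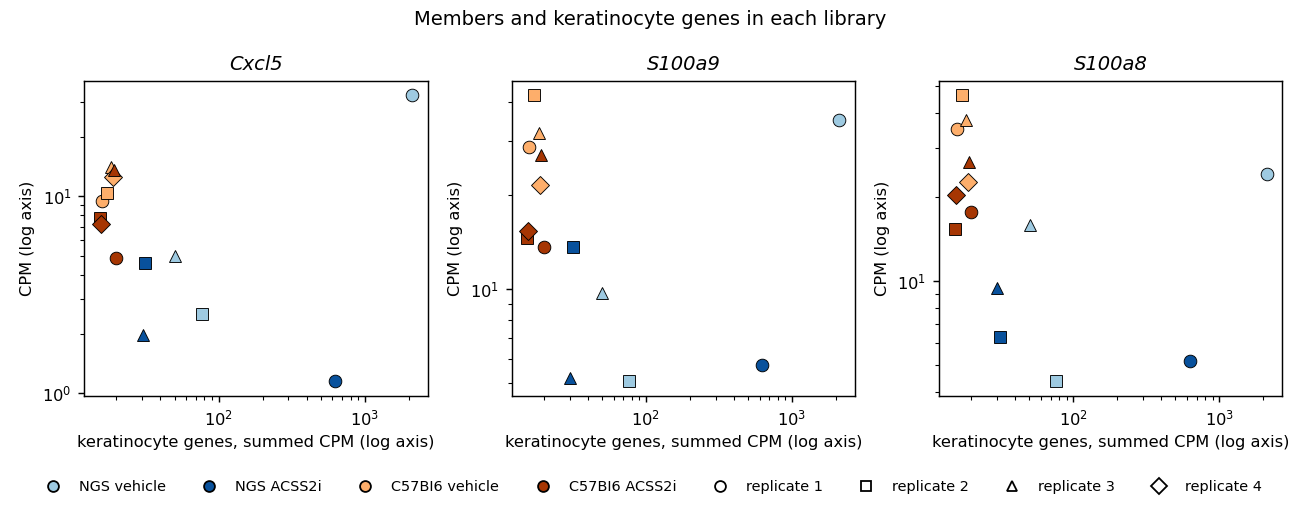
CPM of Cxcl5, S100a9 and S100a8 in each library against the summed CPM of 20 keratinocyte genes, both on log axes, with colour for the group and shape for the replicate. NGS vehicle 1 (2112 CPM of keratinocyte genes) has the highest Cxcl5, whereas NGS ACSS2i 1 (626 CPM) has the lowest.

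The receptor transcripts did not pass the test in C57BI6 tumours, and their levels were close in both groups. Cxcr2 (ENSMUSG00000026180, chromosome 1, 74153989 to 74161246, plus strand, protein-coding) was at 45.7, 46.0, 37.0 and 34.2 CPM in vehicle and at 41.9, 45.7, 45.9 and 44.3 CPM in ACSS2i. The treated libraries lay within the vehicle range, and the log2 fold change of 0.07 ± 0.17 did not pass (edgeR adjusted p = 0.989). Csf3r (ENSMUSG00000028859, chromosome 4, 126024550 to 126044440, plus strand, protein-coding) was at 13, 13.2, 14.6 and 14.9 CPM in vehicle and at 17.0, 15.0, 16.2 and 16.7 CPM in ACSS2i. These CPM did not overlap, as in 7.05% of genes in the higher direction, but the log2 fold change of 0.16 ± 0.18 did not pass (edgeR adjusted p = 0.943). With library sizes scaled by TMM, the normalization used in the test, the groups overlapped (15.1 to 17.6 against 13.6 to 16.1 CPM). The summed Cxcr2 and Csf3r level was 49.1 to 59.2 CPM in vehicle and 58.9 to 62.1 CPM in ACSS2i.

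In NGS tumours Csf3r had few counts, and fewer in the treated libraries. It had 11, 5 and 7 counts in the vehicle libraries (2.34, 1.15 and 1.66 CPM) and 2, 0 and 0 in the treated ones (0.574, 0 and 0 CPM). The groups did not overlap, and the ratio of the CPM of the pooled groups, ACSS2i over vehicle, was 0.111 with an exact 95% counting interval of 0.0127 to 0.45. Csf3r entered the test through the C57BI6 libraries, since with the NGS libraries fitted alone it fell below the filter on low counts and had no test. The model of all 4 groups gave a log2 fold change of -3.14 ± 0.65 (edgeR adjusted p = 0.0238). Among the 7 members tested Csf3r alone was past the threshold, where 1.38% of genes passed as lower and 2.69% in either direction, and where 8.56% of genes had non-overlapping lower groups. The call was lost on leaving out the control replicate 1 or the treated replicate 2 or 3 (edgeR adjusted p up to 0.0827), with limma voom (adjusted p = 0.0862) and with counts thinned to the smallest library (edgeR adjusted p = 0.0677). It was also lost without the 3 C57BI6 libraries richest in muscle RNA (edgeR adjusted p = 0.0717). The treated replicates 2 and 3, which had no Csf3r count, also held the least RNA of keratinocytes, muscle and mast cells of the NGS tumours, at 30.2 to 31.6, 20 to 25 and 1.05 to 5.45 CPM summed over each list, and the part of these tissues was not tested.

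The Csf3r responses of the strains differed by 3.29 ± 0.68 on the log2 scale, C57BI6 minus NGS, which did not pass over all genes (edgeR adjusted p = 0.141). Across all genes 0.0173% passed that test of the difference, and 0 of the 7 members did with edgeR, DESeq2 or limma voom, 1 of them (Csf3r) at an unadjusted p under 0.05. Without NGS ACSS2i 1, the only treated NGS library with Csf3r counts, the adjusted p was 0.023 in edgeR, but that leaves the treated NGS group at 0 counts and is no support for a difference. Cxcr2 in NGS tumours was at 11.7, 4.61 and 5.70 CPM in vehicle and at 5.16, 4.57 and 5.70 CPM in ACSS2i. The vehicle replicate 1, which was rich in keratinocyte RNA, was again the highest, and the remaining libraries overlapped (log2 fold change -0.55 ± 0.29, edgeR adjusted p = 0.275, and -0.04 without vehicle replicate 1). In the last 500 bases of the transcripts, 13.3% of the 50-base words of Csf3r and 2.22% of those of Cxcr2 also occur in transcripts of other genes. The sources used here do not say how the authors' counting treated such reads.

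Csf3 (ENSMUSG00000038067, chromosome 11, 98701263 to 98703629, plus strand, protein-coding) was almost absent from these tumours. It had 1, 1, 2 and 1 counts in C57BI6 vehicle, 1, 0, 1 and 0 in C57BI6 ACSS2i, and 0 in all 6 NGS libraries. It was not tested with edgeR. The ratio of 2 to 5 counts in the C57BI6 groups, as CPM, was 0.384 with an exact 95% interval of 0.0366 to 2.34, and an exact permutation test of the mean CPM gave p = 0.171. No change was detectable at this depth.

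S100a8 (ENSMUSG00000056054, chromosome 3, 90668978 to 90670035, plus strand) and S100a9 (ENSMUSG00000056071, chromosome 3, 90692632 to 90695721, minus strand), both protein-coding, had lower mean levels under ACSS2i in both strains, and neither passed the test. S100a8 was at 34.9, 46.2, 37.7 and 22.6 CPM in C57BI6 vehicle and at 17.7, 15.3, 26.7 and 20.4 CPM in C57BI6 ACSS2i. The treated replicate 3 lay above the vehicle replicate 4, and the other libraries were separate (log2 fold change -0.88 ± 0.33, edgeR adjusted p = 0.419). S100a9 was at 28.6, 41.9, 31.7 and 21.6 CPM in C57BI6 vehicle and at 13.7, 14.6, 26.9 and 15.4 CPM in C57BI6 ACSS2i. The same pair of libraries overlapped (-0.87 ± 0.41, edgeR adjusted p = 0.644). With limma voom and sample quality weights, S100a8 (-0.92 ± 0.22, adjusted p = 0.0388) and Cxcl1 (-1 ± 0.25, adjusted p = 0.0483) passed beside Cxcl2.

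The NGS libraries gave S100a8 at 24.2, 4.38 and 15.9 CPM in vehicle and at 5.16, 6.32 and 9.42 CPM in ACSS2i. S100a9 there was at 34.9, 5.07 and 9.74 CPM in vehicle and at 5.74, 13.7 and 5.20 CPM in ACSS2i. Vehicle replicate 1 was the highest and vehicle replicate 2 the lowest library for both genes, so the treated libraries lay inside the vehicle range. The log2 fold changes were -1.12 ± 0.48 for S100a8 (edgeR adjusted p = 0.188) and -1.10 ± 0.59 for S100a9 (edgeR adjusted p = 0.287). Without vehicle replicate 1, the library rich in keratinocyte RNA, S100a8 was at -0.57 (edgeR adjusted p = 0.556) and S100a9 at 0.05 ± 0.50. The ratio of S100a8 to S100a9 counts was 0.992 to 1.33 in the 8 C57BI6 libraries and 0.462 to 1.81 in the 6 NGS libraries.

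**Figure D3:**
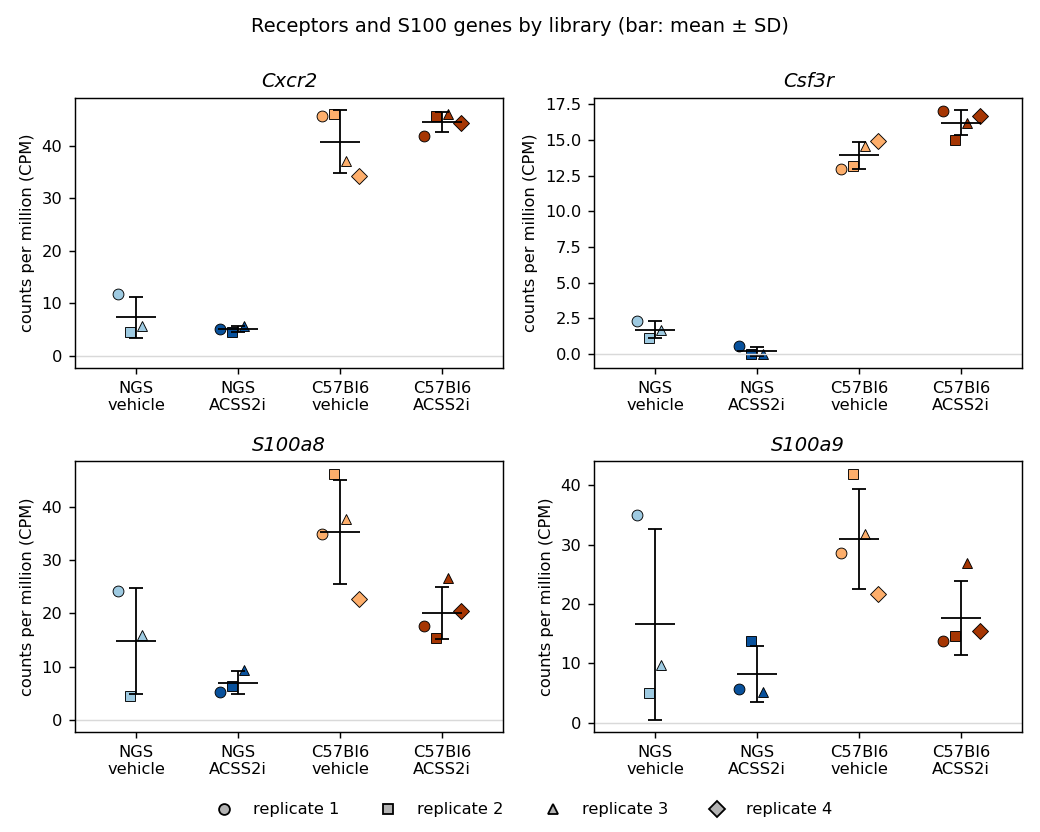
CPM of the receptor genes Cxcr2 and Csf3r and of S100a8 and S100a9 in every library, with the mean and SD of each group as a bar. In C57BI6 tumours Cxcr2 is at 34.2 to 46 CPM in vehicle and 41.9 to 45.9 CPM in ACSS2i, and the highest S100a9 library of the treated group is replicate 3 at 26.9 CPM.

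**Figure D4:**
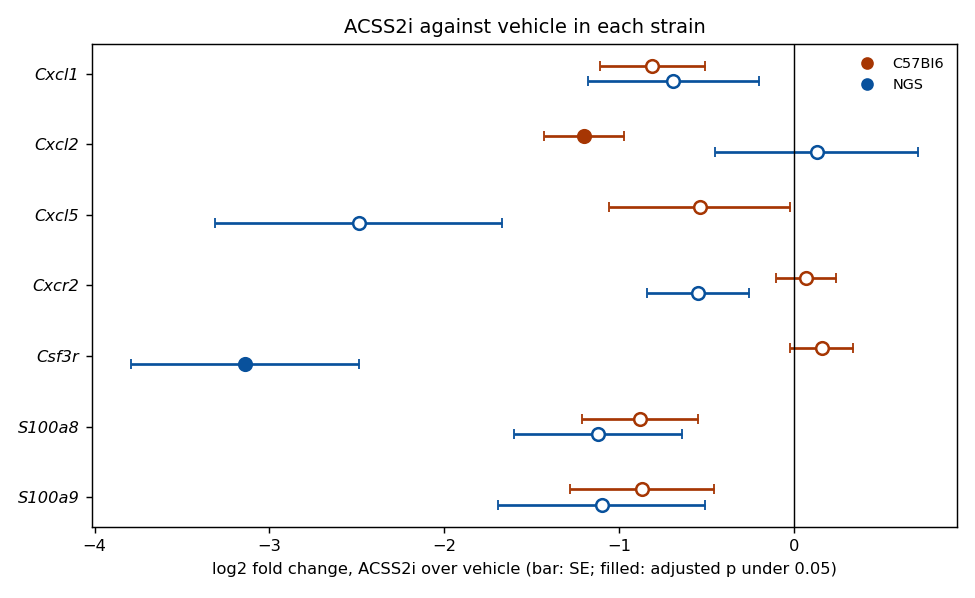
Log2 fold change of ACSS2i over vehicle for the 7 members tested, with the standard error as a bar, in C57BI6 (brown) and NGS (blue), filled where the edgeR adjusted p was under 0.05. Cxcl2 in C57BI6 (-1.20) and Csf3r in NGS (-3.14) are the filled points.

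Members moved together from library to library to different degrees, given as a description over 8 C57BI6 libraries after subtracting each group's mean log2 CPM. Pearson correlations were 0.95 for Cxcl1 with Cxcl2, 0.92 for S100a8 with S100a9, 0.94 for Cxcl1 with S100a9 and 0.82 for Cxcl1 with Cxcl5. Csf3r had correlations of -0.05 with Cxcl1, 0 with Cxcl2 and -0.80 with Cxcr2. The points share libraries and scaling, and the treated replicate 3 is the highest treated library for Cxcl1, Cxcl2, Cxcl5, S100a8 and S100a9. Over all 14 libraries the value for Cxcl1 with Cxcl2 was 0.83. On the same measure the genes most like Cxcl1 were Hccs (0.92), Mfn2 (0.87) and R3hcc1 (0.84), those most like Cxcl2 were Zfp365 (0.91), Tada2a (0.87) and Vegfd (0.87), and those most like S100a8 were Srp19 (0.97), Odf2 (0.93) and Shmt1 (0.89). Such values come from a search over all named protein-coding genes whose mean log2 CPM was at least 1, in 14 libraries of unequal depth.

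Between the strains, 5 members were higher in C57BI6 tumours under either treatment: Cxcl1, Cxcl2, Cxcr2, Csf3r and S100a8. Genes higher in C57BI6 made up 18.8% of those tested in vehicle and 23.1% in ACSS2i, so many genes shared this direction. Cxcl2 and Csf3r passed the filter on low counts through the C57BI6 libraries, where they are high, so their passing is no support for the direction. In vehicle Cxcl2 was at 1.28 ± 0.311 CPM in NGS (SD, n = 3) and at 34.5 ± 4.46 CPM in C57BI6 (n = 4), a pooled CPM ratio of 26.9 with an exact 95% counting interval of 16.7 to 46.2 (log2 fold change 4.89 ± 0.37, edgeR adjusted p = 1.19e-07). Under ACSS2i the ratio was 10.7 with an interval of 6.47 to 19.2 (3.55 ± 0.39, edgeR adjusted p = 6.27e-06). Cxcl1 was 6.4-fold higher in vehicle (2.68 ± 0.39, edgeR adjusted p = 0.000104) and 5.88-fold higher in ACSS2i (2.56 ± 0.42, edgeR adjusted p = 0.000288). The ratio of Cxcl1 to Cxcl2 counts was 1.09 to 1.67 (vehicle) and 1.59 to 2.03 (ACSS2i) in the C57BI6 strain, against 6.25 to 6.71 and 2.83 to 5.4 in the NGS strain. The NGS values rest on 4 to 7 counts of Cxcl2 in a library.

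Both receptor genes were higher in the C57BI6 strain. Cxcr2 was 6.1-fold higher in C57BI6 vehicle (2.61 ± 0.23, edgeR adjusted p = 5.9e-07) and 9.37-fold higher in C57BI6 ACSS2i (3.23 ± 0.25, edgeR adjusted p = 1.38e-07). Csf3r was 8.9-fold higher in vehicle (3.15 ± 0.28, edgeR adjusted p = 7.74e-07). It passed the filter on low counts through the C57BI6 libraries, where it is high, so its passing in either treatment is no support for the direction. Under ACSS2i, Csf3r had 1257 counts in C57BI6 and 2 in NGS, a CPM ratio of 84 with an exact 95% counting interval of 23.2 to 695 (edgeR adjusted p = 3.89e-08). Cxcl3 had 36 counts in C57BI6 vehicle and 1 in NGS vehicle, a ratio of 6.41 (1.08 to 260.1). Under ACSS2i Cxcl3 was at least 1.43-fold higher in C57BI6 against the limit of 3 counts over the NGS group.

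S100a8 was 2.64-fold higher in C57BI6 vehicle (1.4 ± 0.39, edgeR adjusted p = 0.0128) and 3.11-fold higher in C57BI6 ACSS2i (1.64 ± 0.44, edgeR adjusted p = 0.00834). The ACSS2i call was lost with limma voom (adjusted p = 0.0559) and without the 3 C57BI6 libraries richest in muscle RNA (edgeR adjusted p = 0.059). S100a9 did not pass in vehicle (1.04 ± 0.48, edgeR adjusted p = 0.111) or in ACSS2i (1.28 ± 0.54, edgeR adjusted p = 0.0735). Cxcl5 was at -0.06 ± 0.59 in vehicle (edgeR adjusted p = 0.951) and at 1.89 ± 0.78 in ACSS2i (edgeR adjusted p = 0.0646). S100a9 passed in vehicle with limma voom (adjusted p = 0.0215). In ACSS2i S100a9 and Cxcl5 passed without the filter (edgeR adjusted p = 0.0437 and 0.0384) and with that treatment fitted alone (edgeR adjusted p = 0.031 and 0.0196). Cxcl5 passed there with DESeq2 as well (adjusted p = 0.043). Other fits of all libraries gave no call for either gene. The vehicle values of these last genes moved with NGS vehicle 1: without it S100a9 was at 2.22 ± 0.44 (edgeR adjusted p = 0.00208) and Cxcl5 at 1.78 ± 0.48 (edgeR adjusted p = 0.0145). Leaving out that library, or NGS vehicle 2, also brought both genes past the test in ACSS2i (edgeR adjusted p = 0.00525 to 0.0382), and so did leaving out NGS ACSS2i 2 for S100a9 (edgeR adjusted p = 0.041). Groups did not overlap for 6 of the 9 members in vehicle and for 7 in ACSS2i. Among the 17294 genes tested, 17.5% and 21.7% were higher without overlap. The 6 and the 7 both hold Cxcl3, which was not tested, so these counts and shares have unlike bases. The 6 also include Csf3, with 1 or 2 counts per C57BI6 library (0.053 to 0.104 CPM). These levels lie below the NGS vehicle limit of 0.226 CPM, so the separation of Csf3 shows no difference between the strains. Strain and sequencing depth cannot be told apart by design. With all libraries thinned to 2846161 counts, the same comparison of vehicle tumours called 5 members, as without thinning. Genes past the threshold in either direction numbered 3700 there, against 5666 without thinning. Thinning evens out only the number of counts, so the part of depth in these differences was not tested.

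**Figure D5:**
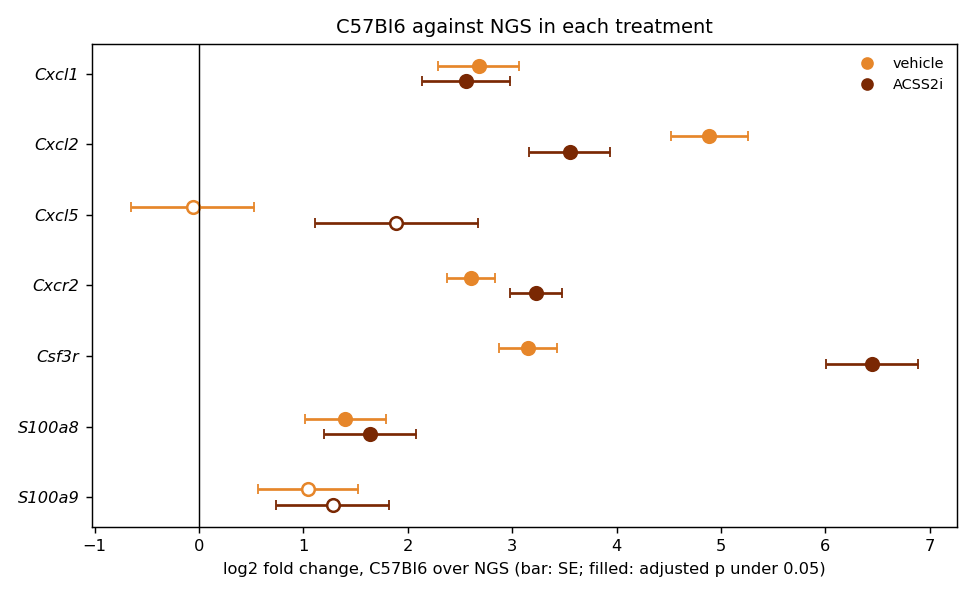
Log2 fold change of C57BI6 over NGS for the 7 members tested, in vehicle (orange) and in ACSS2i (dark brown), with the standard error as a bar, filled where the edgeR adjusted p was under 0.05. Cxcl2 (4.89 and 3.55), Csf3r, Cxcr2, Cxcl1 and S100a8 are filled in both treatments, and Cxcl5 and S100a9 in neither.

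By group the order of mean levels was the same for Cxcl1, S100a8 and S100a9: C57BI6 vehicle, then C57BI6 ACSS2i, NGS vehicle and NGS ACSS2i. S100a8 went from 35.3 ± 9.76 through 20 ± 4.9 and 14.9 ± 9.98 to 6.97 ± 2.2 CPM. S100a9 went from 30.9 ± 8.4 through 17.7 ± 6.2 and 16.6 ± 16 to 8.21 ± 4.76 CPM. Neighbours in the order of S100a8 and S100a9 overlapped in every case. For Cxcl1 the C57BI6 groups overlapped each other and the NGS groups overlapped each other, while all C57BI6 libraries lay above all NGS libraries. Cxcr2 and Csf3r were ordered with C57BI6 ACSS2i first, at 44.5 ± 1.84 and 16.2 ± 0.883 CPM. C57BI6 vehicle followed at 40.7 ± 6.06 and 13.9 ± 0.962 CPM, then NGS vehicle at 7.34 ± 3.82 and 1.72 ± 0.596 CPM, then NGS ACSS2i at 5.14 ± 0.566 and 0.191 ± 0.331 CPM. By CPM the groups of the same strain overlapped for Cxcr2 and not for Csf3r, and both genes were separate between strains. With TMM scaling the C57BI6 groups of Csf3r overlapped (13.6 to 16.1 CPM in vehicle, 15.1 to 17.6 in ACSS2i). Its NGS groups rest on 23 counts in vehicle and 2 in ACSS2i. Cxcl2 was ordered as C57BI6 vehicle, C57BI6 ACSS2i and the NGS groups, of which the last overlapped. Cxcl5 alone had its highest mean in NGS vehicle, 13.4 ± 16.7 CPM, ahead of 11.6 ± 2.06 and 8.35 ± 3.7 CPM in the C57BI6 groups and 2.57 ± 1.78 CPM in NGS ACSS2i. Its first 3 groups overlapped. NGS ACSS2i (1.15 to 4.57 CPM) overlapped NGS vehicle (2.53 to 32.5 CPM) and lay below both C57BI6 groups.

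Other genes of mature neutrophils did not pass the test. Of 25 listed surface and secreted genes, 21 were tested, and with edgeR 0 rose and 0 fell under ACSS2i in either strain (3 and 1 passed with DESeq2 and 3 and 0 with limma voom, each C57BI6 then NGS). At an unadjusted p under 0.05, 6 were higher and 0 lower in C57BI6, and 2 higher and 1 lower in NGS. The share of all genes at that cut-off is not given, so such counts, here and for the lists that follow, are not read as results. In C57BI6 13 of the 21 had a positive estimate and 8 a negative one, with medians of 0.28 in C57BI6 and -0.22 in NGS against -0.01 over all genes in each. The summed level of the list was 173 to 208 CPM in C57BI6 vehicle and 218 to 319 CPM in C57BI6 ACSS2i, and 199.5 to 421 and 382 to 460.2 CPM in the NGS groups. Retnlg, one of the 8 with a negative estimate, had 220 counts in C57BI6 vehicle and 119 in C57BI6 ACSS2i (2.93 ± 1.03 and 1.53 ± 0.764 CPM), which did not pass (log2 fold change -0.99 ± 0.48, edgeR adjusted p = 0.663). In NGS it had 4 and 0 counts. Of 11 granule genes 5 could be tested and 0 passed with edgeR in either strain. In each strain 1 of them, Chil3, had an unadjusted p under 0.05. Chil3, the gene of the lectin Ym1 made by neutrophils and by macrophages, was at 1.61 ± 0.44 in C57BI6 (edgeR adjusted p = 0.169) and at 2.30 ± 0.61 in NGS (edgeR adjusted p = 0.0555), and passed with DESeq2 in both strains and with limma voom in C57BI6.

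The next list holds upstream genes of the pathway. Among 23 cytokine, receptor and NF-kB genes that induce these ligands, 21 were tested, and 0 passed in C57BI6 with edgeR, DESeq2 or limma voom (4 at an unadjusted edgeR p under 0.05), with a median of -0.14. In NGS 2 rose and 0 fell, with a median of -0.05, where 228 of all 17294 genes tested passed as higher and 238 as lower. Rela, the NF-kB subunit p65, went from 54.1 ± 6.65 to 81.7 ± 6.55 CPM (log2 fold change 0.55 ± 0.11, edgeR adjusted p = 0.0224). Il1rn, the interleukin-1 receptor antagonist, went from 10.6 ± 0.586 to 36.3 ± 14 CPM (1.72 ± 0.41, edgeR adjusted p = 0.0404). Without NGS vehicle 1, NGS vehicle 3 or NGS ACSS2i 3 the call of Rela was lost (edgeR adjusted p up to 0.0654), and that of Il1rn was lost without any 1 of 10 libraries (up to 0.137), which include all NGS libraries but ACSS2i 1. Il17a, which encodes a cytokine that induces these ligands with CSF3, had 0 counts in every group.

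Of the other chemokine and receptor genes of the axis, 7 of 9 were tested and 0 passed in either strain with edgeR (3 and 1 at an unadjusted p under 0.05, 1 and 1 with DESeq2, 1 and 0 with limma voom, and medians 0.11 in C57BI6 and -0.06 in NGS). Cxcl16, a chemokine for CXCR6-bearing lymphocytes, had the smallest p (0.55 ± 0.16 in NGS, edgeR adjusted p = 0.0659). Of 11 growth factor genes and their receptors, 10 were tested and 0 passed with edgeR (4 and 2 at an unadjusted p under 0.05, 3 and 1 with DESeq2, 3 and 0 with limma voom, and medians 0.18 and 0.09). Csf2ra, a receptor chain for GM-CSF, came first at 0.76 ± 0.20 in C57BI6 (edgeR adjusted p = 0.158). Of 12 other S100 genes and receptors 0 passed with edgeR (1 and 5 at an unadjusted p under 0.05, 0 and 1 with DESeq2, 0 and 0 with limma voom, and medians -0.01 and -0.28). S100a13 came first at -0.41 ± 0.13 in NGS (edgeR adjusted p = 0.0867).

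Markers of other cells that could carry these transcripts are given for each group. Of 15 monocyte and macrophage genes, 3 rose in C57BI6 and 2 in NGS, with medians of 0.37 and 0.34. Of all 17294 genes tested, 45 passed as higher in C57BI6 and 228 in NGS. Ly6c2, the surface antigen of inflammatory monocytes, went from 4.7 ± 1.1 to 44.3 ± 11.2 CPM in C57BI6 (edgeR adjusted p = 0.00156) and from 4.14 ± 2.14 to 39.9 ± 22.8 CPM in NGS (edgeR adjusted p = 0.00552). Ms4a4c, a membrane protein gene of monocytes, rose by 1.94 ± 0.21 in C57BI6 and by 2.33 ± 0.28 in NGS on the log2 scale (edgeR adjusted p = 0.00156 and 0.00205). Plac8 rose by 2.28 ± 0.29 in C57BI6 (edgeR adjusted p = 0.00344). In NGS Plac8 did not rise, at 30.2 ± 7.63 CPM in vehicle and 26.9 ± 10.9 CPM in ACSS2i (-0.19 ± 0.34, edgeR adjusted p = 0.795). The summed level of the 15 genes was 4608 to 7070.4 CPM in C57BI6 vehicle and 5868 to 8819.8 CPM in C57BI6 ACSS2i, and 3327 to 4593 and 4959.9 to 5105 CPM in the NGS groups. Keratinocyte genes were at 15.9 to 18.9 and 15.4 to 20 CPM in the C57BI6 groups, where Krt5 had at most 12 counts and Krt14 at most 8 in a library. In the NGS strain the keratinocyte sums were 50.4 to 2112 CPM with vehicle and 30.2 to 626 CPM with ACSS2i, and with edgeR 0 of 12 of these genes passed (4 lower at an unadjusted p under 0.05, 1 call with DESeq2 and 0 with limma voom). Sums over mast cell and eosinophil genes were 93.5 to 202 CPM in NGS controls and 1.05 to 64.2 CPM in treated NGS tumours, with 0 of 6 genes past edgeR (4 lower at an unadjusted p under 0.05, 1 call with DESeq2 and 0 with limma voom). They were 21.2 to 124 and 33.5 to 42.7 CPM in the C57BI6 groups, with 0 of 6 genes at an unadjusted p under 0.05. The eosinophil peroxidase gene Epx had 0 counts in both NGS groups and in treated C57BI6 tumours. Muscle sums were 324 to 6669 and 20 to 694 CPM in the NGS groups and 5.44 to 992 and 8.08 to 3025 CPM in the C57BI6 groups. Lymphocyte and natural killer genes summed to 9.8 to 16.3 CPM in C57BI6 controls, 39.3 to 59.2 CPM in treated C57BI6 tumours and 1.43 to 2.85 CPM in the NGS libraries, and Gzmb, a cytotoxic protease gene, rose from 1.66 ± 0.283 to 7.97 ± 2.88 CPM in C57BI6 (edgeR adjusted p = 0.019, up to 0.0876 without any 1 of 4 C57BI6 libraries: vehicle 2, 3 or 4, or ACSS2i 4). Of 11 mammary and mesenchymal genes 8 were tested. Vim, an intermediate filament gene, fell in NGS, where 1.38% of all genes tested passed as lower. Its log2 fold change was -0.78 ± 0.17 (edgeR adjusted p = 0.027, up to 0.0793 without NGS vehicle 1 or 2, or NGS ACSS2i 2 or 3). The part of these cell types in the members' levels was not tested.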

How the data were processed

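RNA from bulk tumours was made into libraries with the Lexogen QuantSeq kit for 3′ ends, per the labels' protocols. The deposited table holds raw counts per Ensembl gene as whole numbers. The submitters' processing notes name the build mm10 and the tools RSEM 1.2.3 and DESeq2 without saying what each did, so the authors may have rounded RSEM estimates. Aligner, annotation and handling of strand are not given in the sources used here. Symbols came from GENCODE M21, which matched 51596 of 51789 genes.

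Genes were filtered with filterByExpr, which kept 17294 and 7 of the 9 members (not Cxcl3 and Csf3), scaled by TMM and tested with the quasi-likelihood test of edgeR 4.0.16 in 1 model of all 4 groups (common biological coefficient of variation 0.236). Cxcl2 and Csf3r passed the filter through the C57BI6 libraries and fell below it with the NGS libraries alone. Tests were two-sided, with Benjamini-Hochberg adjustment over all genes and a threshold of 0.05. Counts at an unadjusted p under 0.05 are given without the share over all genes and are not read as results. Means are given with the SD and log2 fold changes with the SE. Intervals are exact and cover counting error only, since no molecular identifiers are described.

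The members and the 12 gene lists were chosen with earlier results of these data known. All members are named. Of each list, up to 4 genes past the threshold are named, or else the gene with the smallest p, plus fixed markers. A gene that this rule names in 1 list is not reported here. Genes like a member are the 3 with the highest correlation of deviations over 14 libraries. Alternatives were DESeq2 1.42.0, its size factors, limma voom 3.58.1, no filter, fits of 1 strain or treatment, a replicate block, thinned counts and each library left out. Leaving out libraries rich in skin or muscle RNA was added after seeing the data. The fit was tested on simulated data.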

Additional observations from a re-analysis of the deposited data

Results flagged for a closer look

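Within the C57BI6 groups of 4, the highest or lowest library stood far from the others for 2 of 18 combinations of member and group, and chance flags about 1 in 20. S100a9 in C57BI6 ACSS2i replicate 3 was at 26.9 CPM, with the other libraries at 13.7 to 15.4. Csf3 in C57BI6 vehicle replicate 3 was at 0.104 CPM, 2 counts, with the others at 0.053 to 0.0567, 1 count each.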

How the results depend on the processing

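Over all alternatives that keep every library or leave out a named set, the members' log2 fold changes kept direction and side of the threshold in 262 of 292 cases, 12 came to pass with the same sign, 7 no longer passed and 11 changed sign, 1 of which (Cxcl5 between strains in vehicle) also came to pass. The cause of these changes was not tested, except that fits of fewer libraries or thinned counts hold less data by construction. In C57BI6 under ACSS2i, members past the threshold numbered 3 with limma voom and 0 with the replicate block, against 1. Genes numbered 339 with DESeq2, 429 with limma voom, 112 without a filter, 266 with 1 strain alone, 9 with the replicate block, 31 with thinned counts, 117 without the libraries rich in skin and 21 without those rich in muscle, against 54. In NGS members numbered 2 with DESeq2 and 0 with limma voom, 1 strain alone, the replicate block, thinned counts or the muscle-rich libraries left out, against 1. With the NGS strain alone Cxcl2 and Csf3r fell below the filter on low counts. Genes numbered 1574 with DESeq2, 27 with limma voom, 9 with 1 strain alone, 254 with the replicate block, 1073 without skin-rich and 120 without muscle-rich libraries, against 466. For the difference between strains, 1 member (Csf3r) passed without skin-rich libraries, which leaves no Csf3r count in the treated NGS group. Genes numbered 283 with DESeq2, 0 with limma voom, 7 without a filter, 34 without skin-rich and 1 without muscle-rich libraries, against 3. Between strains, genes in vehicle numbered 3700 with thinned counts, against 5666, and genes in ACSS2i 3969 without muscle-rich libraries, against 6961. Members in ACSS2i numbered 8 without a filter, against 5.

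Without skin-rich libraries S100a9 in NGS was 0.25, and the differences between the strains were -0.22 for Cxcl5, -0.5 for S100a8 and -1.12 for S100a9. That of S100a8 was -0.45 with limma voom. That of S100a9 was -0.05 with limma voom, -0.04 with the replicate block and -0.06 without muscle-rich libraries. Cxcl5 between strains in vehicle was 0.85 with limma voom, 1.77 without skin-rich (edgeR adjusted p = 0.012) and 0.02 without muscle-rich libraries.

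Leaving out 1 library at a time gave 0 to 2 members and 15 to 122 genes in C57BI6, 0 to 1 and 118 to 1743 in NGS, 0 to 1 and 1 to 62 for the difference between strains, 5 to 7 and 4608 to 6715 between strains in vehicle, and 5 to 8 and 5949 to 7237 in ACSS2i. Signs changed within these ranges: Cxcr2 in C57BI6 -0.01 to 0.14, Cxcl2 in NGS -0.03 to 0.25, S100a9 in NGS -1.63 to 0.05, the differences between strains of Cxcl1 -0.6 to 0.1, S100a8 -0.31 to 0.67 and S100a9 -0.92 to 0.78, and Cxcl5 between strains in vehicle -0.53 to 1.78. The difference in mean CPM of Cxcl3 in C57BI6 ran from -0.136 to 0.0225.

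With the replicate block Cxcl2 in C57BI6 was -1.28 (edgeR adjusted p = 0.0708) and Csf3r in NGS -3.17 (0.0508). Equal numbers did not pair the libraries: correlations of deviations between equal numbers were -0.141 to 0.219 in C57BI6 and 0.016 to 0.045 in NGS. Scaling by DESeq2 size factors moved the median of all genes by at most 0.02 on the log2 scale.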
